A study of Mus musculus with 31 samples.

Results

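Single-embryo counts were read for 10 genes, Wwp1, Wwp2, Nedd4, Nedd4l, Itch, Smurf1, Smurf2, Hecw1, Hecw2 and Ndfip1, which are the 9 HECT ubiquitin ligases of the Nedd4 family and one of their adaptors. They were picked by name and all 10 were found among the 20544 genes of the table. The family was chosen from measured values, since Wwp2 stood out in the SER to control contrast of these same embryos. The values of the members in that contrast are therefore given as a description, and calls from the fit over all genes are printed only as counts.

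The RNA came from 31 single two-cell embryos collected at 32 h post-insemination (HPI), 16 control-generated and 15 SER-generated. All were wild type, from C57BL/6J sperm (males of 12 to 14 weeks) and eggs of superovulated CD1 females (8 to 10 weeks), and all had 4 h of insemination and then culture in KSOM. Control sperm were kept throughout in complete medium with glucose and pyruvate (IVF-TYH +/+). For SER, Sperm Energy Restriction and Recovery, sperm from the other cauda were held without either nutrient (IVF-TYH −/−) until they stopped moving, after 15 to 45 min, and were then returned to complete medium. Only the sperm were treated. The embryos are in vitro fertilized hybrids from several fertilizations. The labels do not say which embryos shared one, so the p-values measure the spread between embryos.

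Ubiquitin passes from an E1 activating enzyme to an E2 conjugating enzyme and from there to a target protein, with the help of an E3 ligase. HECT ligases take the ubiquitin onto a cysteine of their own before they hand it on. Members of the Nedd4 family share a membrane-binding C2 domain, WW domains that bind PPxY stretches in partners, and the catalytic HECT domain, and they are known for sorting membrane proteins and for restraining TGF-beta signaling. Ndfip1 is a membrane protein whose PPxY stretches recruit and activate these ligases. In embryonic stem cells, Wwp2 is known as a ligase for the pluripotency factor Oct4, the product of Pou5f1.

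Promoter windows were read for 5 of the 10 members from the RefSeq promoter set on build GRCm38.p6: Hecw2, Smurf1, Wwp2, Nedd4 and Smurf2. Whether the set also lists the other members is not reported here. The 250 bases before the RefSeq start are shown for Wwp2, the member that led the contrast, for Smurf2, the member with the highest level, and for Nedd4 (the first of its listed starts), a member with a lower level. GENCODE places the start of Wwp2 slightly earlier, so the last 5 bases of its window lie inside the GENCODE gene, while the windows of Smurf2 and Nedd4 lie outside theirs. Capitals mark matches, on either strand, to the GC box spelled as GGGCGG, to the motif known as the CCAAT box, to the TATA box in the exact spelling TATAAA, and to the E-box in the palindromic spelling CACGTG. Matches to the GC box may overlap each other.
Wwp2: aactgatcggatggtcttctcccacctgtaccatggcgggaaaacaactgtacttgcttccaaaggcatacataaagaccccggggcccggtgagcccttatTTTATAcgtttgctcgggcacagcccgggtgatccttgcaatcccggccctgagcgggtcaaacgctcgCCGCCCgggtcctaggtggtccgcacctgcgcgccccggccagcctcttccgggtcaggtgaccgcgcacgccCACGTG
Smurf2: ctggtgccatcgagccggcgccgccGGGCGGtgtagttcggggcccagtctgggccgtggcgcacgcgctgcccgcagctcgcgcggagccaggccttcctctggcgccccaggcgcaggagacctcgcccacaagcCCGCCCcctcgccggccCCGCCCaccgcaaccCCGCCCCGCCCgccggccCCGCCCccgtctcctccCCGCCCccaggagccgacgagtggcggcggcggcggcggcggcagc
Nedd4: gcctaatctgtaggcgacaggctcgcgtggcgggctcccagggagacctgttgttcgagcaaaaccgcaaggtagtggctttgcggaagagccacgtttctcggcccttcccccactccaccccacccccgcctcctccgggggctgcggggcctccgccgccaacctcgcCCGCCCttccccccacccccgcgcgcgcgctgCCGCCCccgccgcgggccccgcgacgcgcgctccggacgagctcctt
The Wwp2 stretch is chr8:107436120-107436369 on the plus strand, that of Smurf2 is chr11:106920716-106920965 on the minus strand, and that of Nedd4 is chr9:72662081-72662330 on the plus strand. The Wwp2 window held 1 GC box, 1 TATA box and 1 E-box, the last at its very end beside the RefSeq start. The Smurf2 window held 7 GC boxes and the Nedd4 window held 2, with no match to the other motifs in either. Over all 32851 promoters read from the set, 32.7% had a GC box in the same window, 33.8% a CCAAT box, 12.4% a TATA box and 6.02% an E-box. All 3 windows were rich in CpG, with 22 in Wwp2, 38 in Smurf2 and 32 in Nedd4, against a median of 6 over the set. Their G and C content was 62.8%, 82% and 74%, with a median of 52.4% over the set. The window of the other listed Nedd4 start, which is not shown, had 9 CpG and 46% G and C. It held 1 CCAAT box and no GC box.

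The libraries held 532945 to 2085222 counts in control embryos (median 955806) and 642321 to 3088396 in SER embryos (median 1375557). To see how the embryos varied in stage and purity, summed levels in CPM (a gene's share of the counts of its library, scaled to 1e+06) were taken for lists of marker genes. Zygotic genes of the two-cell burst (20 of 21 detected in over 15 embryos) summed to 330 to 2527 CPM in control and 601 to 2005 CPM in SER embryos, and egg-stored maternal genes (22 of 23) to 11518 to 38818 and 10272 to 22873 CPM. The two-cell label thus had both its defining gene groups, with Duxbl1 and Oog1 at 0 in every embryo. Control replicate 5 stood apart in cumulus cell markers, at 1572 CPM against at most 97.9 CPM in any other embryo, of which Cyp11a1, a steroid-making enzyme, gave 1423 CPM. Only 5 of the 11 cumulus markers were detected in this embryo. Has2 and Ptx3, which define the cumulus matrix, were at 0 in it, as were Col1a2, Lhcgr, Cd44 and Amh. SER replicate 13 had the highest macrophage markers, 167 CPM, mostly Cd68 and Lyz2, with Ptprc and Csf1r at 0. Sperm markers stayed between 0 and 30.9 CPM. Control replicate 4 and SER replicate 15 had the lowest zygotic and the highest maternal index (the mean log2(CPM + 1) of each list).

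Compared per length, the ligases covered a wide range of levels. The ligase Smurf2, named for its action on Smad proteins, was the most abundant at 33.0 ± 11.6 CPM per kb of exon (mean ± SD, n = 31), which placed it above 89.4% of detected genes. The membrane-trafficking ligase Wwp1 followed at 17.6 ± 5.96 CPM per kb. Wwp2, the closest relative of Wwp1 and Itch, was at 9.17 ± 3.94 CPM per kb, above 72.1% of detected genes. Nedd4l, best known for removing the epithelial sodium channel from the membrane, had 9.64 ± 7.58 CPM per kb, and Smurf1 had 8.15 ± 4.93. Nedd4, the founding member, was lower at 4.97 ± 2.60, Itch at 3.52 ± 1.56 and the adaptor Ndfip1 at 3.68 ± 4.03 CPM per kb. Hecw2 and Hecw1, known mainly from neural tissue, were the lowest, at 1.32 ± 0.66 and 0.49 ± 0.52. On average Smurf2 made up 36.0% and Wwp1 19.3% of the summed level of the 10 members, and Wwp2 10.0%.

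**Figure D1:**
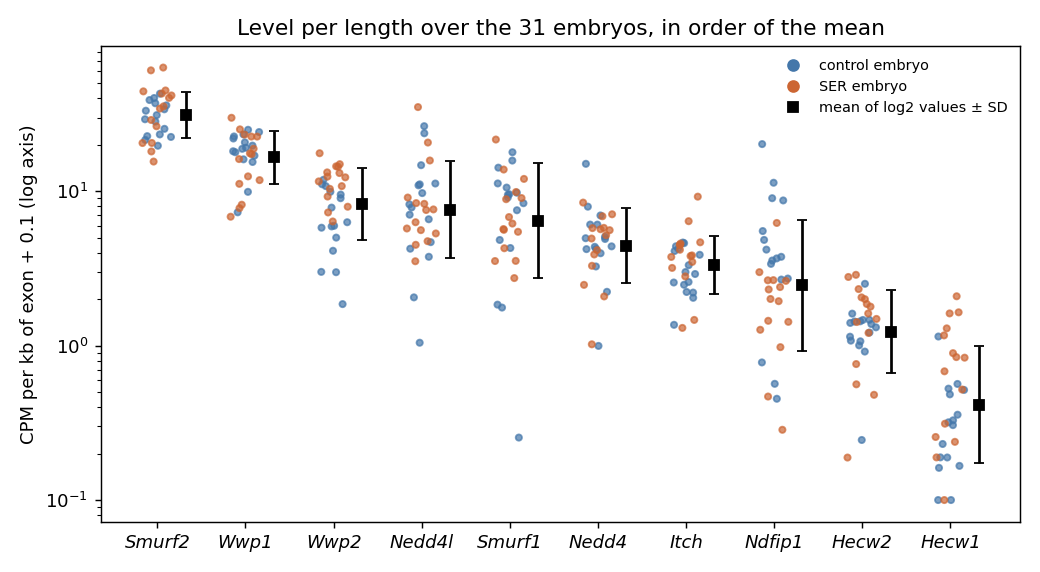
Level of each member per length in the 31 single embryos (CPM per kb of exon + 0.1, log axis), in order of the mean of the log2 values. Points are embryos (blue control, orange SER) and the black square with bar is the mean ± SD of the log2 values, highest for Smurf2 and lowest for Hecw1.

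The members were ordered by the mean of log2(CPM per kb + 0.1), which puts Wwp2 above Nedd4l and Itch above Ndfip1, unlike the mean CPM per kb. Neighbors in this order were compared within embryos on the same log2 scale. The test was a 2-sided sign-flip permutation test with adjustment over the 9 pairs. Smurf2 exceeded Wwp1 in 28 of 31 embryos, by 0.91 ± 0.62 (SD) on the log2 scale (permutation test, adjusted p = 3e-05, from the smallest p the permutations can give). Wwp1 exceeded Wwp2 in 25 of 31 embryos, by 1.00 ± 0.99 (permutation test, adjusted p = 3e-05). The next steps did not pass at the pseudocount of 0.1: Wwp2 over Nedd4l (17 of 31 embryos, permutation adjusted p = 0.631), Nedd4l over Smurf1 (19 of 31, 0.389) and Smurf1 over Nedd4 (22 of 31, 0.0759, and 0.029 with a pseudocount of 1). Nedd4 exceeded Itch by 0.42 ± 1.02 (21 of 31, permutation adjusted p = 0.0477), a step that did not pass without control replicates 4 and 5 and SER replicate 15 (0.188). Itch and Ndfip1 did not differ beyond their spread over all embryos (0.44 ± 1.52, permutation adjusted p = 0.154), but without these 3 embryos Itch was above Ndfip1 by 0.66 ± 1.32 (permutation adjusted p = 0.0241). Ndfip1 exceeded Hecw2 by 0.99 ± 1.81 (permutation adjusted p = 0.0108), a step that did not pass with counts thinned to the smallest library (0.64 ± 2.64, 0.242), and Hecw2 exceeded Hecw1 by 1.57 ± 1.39 (3e-05).

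Some of these steps looked different in the control and the SER embryos, and those differences were not tested. Itch was above Ndfip1 in 7 of 16 control embryos (−0.22 ± 1.65, permutation adjusted p = 0.603) and in 14 of 15 SER embryos (1.14 ± 0.99, 0.00171). Ndfip1 was above Hecw2 in 13 of 16 control embryos (1.55 ± 1.90, permutation adjusted p = 0.0128) and in 8 of 15 SER embryos (0.40 ± 1.56, 0.426). The Nedd4 over Itch step passed in control embryos (0.036) but not in SER embryos (0.426), nor with a pseudocount of 0.01 (permutation adjusted p = 0.0522). Wwp1 over Wwp2 passed in control embryos (permutation adjusted p = 0.00027) and not in SER embryos (0.086). Values of Wwp2 and Ndfip1 by group belong to the contrast that chose the family, so nothing is read from these differences.

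With the coding length in place of the exon length, Nedd4l stood above Wwp2 (difference −0.61 ± 1.41, permutation adjusted p = 0.0252) and Ndfip1 above Itch (−0.77 ± 1.60, 0.0169). Nedd4l then exceeded Smurf1 in 25 of 31 embryos (1.26 ± 1.41, permutation adjusted p = 4.5e-05). Smurf1 over Nedd4 fell to 0.01 ± 1.52 (permutation adjusted p = 0.964). The remaining steps kept their direction and passed. The order or size of the steps between these pairs therefore rests on the length used. The counts merge 5′ reads with internal reads, so they scale with length only in part.

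Wwp2 (ENSMUSG00000031930.11) lies on the plus strand at chr8:107436365-107558595 of GRCm38 and carries the microRNA gene Mir140 within its span, at chr8:107551244-107551313. Only 0.789% of its exon bases overlap another gene. In control embryos its lowest, median and highest values were 15.6, 53.6 and 104 CPM, and in SER embryos 55.7, 108 and 156 CPM. The groups overlapped between 55.7 and 104 CPM. All 15 SER embryos were above the control median, 8 of them were above the highest control embryo, and 9 of 16 control embryos were below the lowest SER embryo. Of all tested genes, 9 of 8571 (0.105%) had every SER embryo above the control median, but the contrast helped to choose Wwp2 and nothing is read from this count. Control embryos averaged 60.7 ± 28.0 CPM (SD, n = 16) and SER embryos 103 ± 27.8 CPM (SD, n = 15). The fitted log2 fold change, SER minus control, was 0.77 (SE 0.22), or 1.71-fold. It stayed between 0.69 and 0.84 when any one embryo was left out. It was 0.70 without control replicates 4 and 5 and SER replicate 15. It was 0.57 with library size as covariate, 0.57 with limma voom and 0.64 with counts thinned to the smallest library. With embryos blocked by replicate number it was 0.86, and 0.81 with clusters of embryos estimated from the data as a factor. The highest Wwp2 level in SER embryos came from SER replicate 13, the embryo with high Cd68 and Lyz2. Without that embryo the log2 fold change was 0.72.

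The adaptor Ndfip1 had the largest difference in the other direction. Its lowest, median and highest values were 2.23, 22.9 and 127 CPM in control embryos and 1.17, 12.1 and 38.9 CPM in SER embryos. The ranges overlapped widely, with 14 of 15 SER embryos below the control median and 4 of 16 control embryos above the highest SER embryo. Control embryos averaged 33.2 ± 31.8 CPM and SER embryos 12.7 ± 8.92 CPM, and the log2 fold change was −1.39 (SE 0.45). The highest value, 127 CPM, came from control replicate 5, the embryo with high Cyp11a1. Without it, the control mean was 26.9 ± 20.2 CPM (n = 15) and the log2 fold change −1.12.

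Hecw1 was close to the limit of detection. It had no count in 2 control embryos and 1 SER embryo, which allows up to 1.84 to 2.95 CPM in them at 3 counts per library. Its lowest, median and highest values were 0, 3.11 and 15.4 CPM in control embryos and 0, 10.8 and 29.2 CPM in SER embryos. Of the SER embryos, 5 were above the highest control embryo and 11 above the control median. The count filter removed Hecw1, and its log2 fold change of 1.58 (SE 0.63) is from a fit of all 17803 genes with a count.

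**Figure D2:**
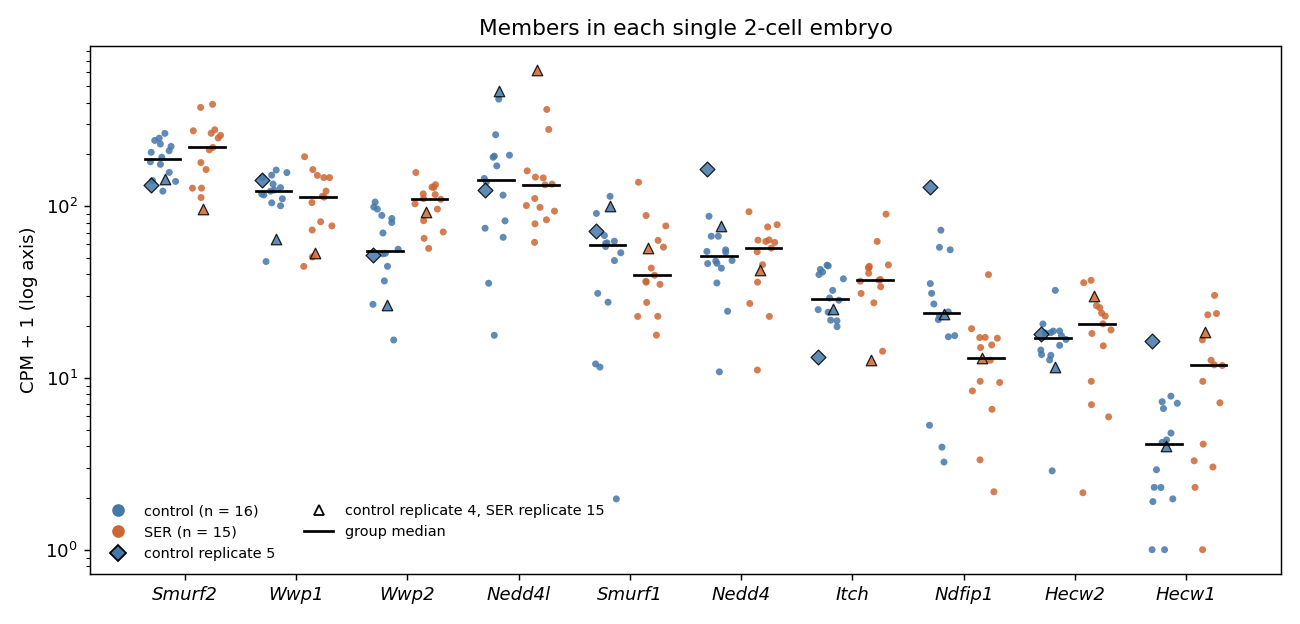
CPM + 1 of each member in the 16 control (blue) and 15 SER (orange) embryos on a log axis, with the group median as a black line. SER embryos lie high for Wwp2 and low for Ndfip1. The diamond is control replicate 5, the highest for Ndfip1 and Nedd4, and the triangles are control replicate 4 and SER replicate 15, the highest for Nedd4l in their groups.

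The other 7 ligases had log2 fold changes within −0.19 and 0.34. Itch, a regulator of immune and Notch signaling, ran from 12.3 to 44.2 CPM in control embryos (median 27.7) and from 11.7 to 88.7 CPM in SER embryos (median 36.3), with a log2 fold change of 0.34 (SE 0.26). Smurf2 ran from 121 to 264 CPM in control (median 186) and from 95.4 to 390 CPM in SER embryos (median 218), with a log2 fold change of 0.19 (SE 0.20). SER embryos lay at both ends for Smurf2, with 5 above the highest and 2 below the lowest control embryo. Hecw2 had a log2 fold change of 0.26 (SE 0.35), with medians of 16.2 CPM in control and 19.6 CPM in SER embryos, and its direction turned (−0.14) with library size as covariate.

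Wwp1 was nearly level, with medians of 122 and 112 CPM and a log2 fold change of −0.19 (SE 0.21). Within embryos, Wwp1 exceeded Wwp2 per kb in 15 of 16 control embryos and in 10 of 15 SER embryos, with mean log2 differences of 1.53 ± 0.91 and 0.44 ± 0.75. The scaling by library total cancels in this comparison apart from the pseudocount of 0.1, but a relation to sequencing depth was not tested. The comparison also shares the values that chose Wwp2. Smurf1 had medians of 58.3 and 38.5 CPM but means of 53.5 ± 31.9 and 49.7 ± 31.5 CPM, and a log2 fold change of −0.11 (SE 0.36) that turned positive without control replicate 4 or 14 and was −0.58 with limma voom.

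Nedd4 ran from 9.84 to 164 CPM in control and from 10.1 to 91.6 CPM in SER embryos, with a log2 fold change of −0.15 (SE 0.29). Over all embryos with library size as covariate, the log2 fold change of Nedd4 was 0.04. Its highest value, 164 CPM, was again in control replicate 5, and without that embryo the log2 fold change was 0.02. Whether cumulus cell RNA contributed to Nedd4 or Ndfip1 in this library was not tested. Nedd4l ranged from 16.7 to 465 CPM in control and from 60.5 to 618 CPM in SER embryos. Its highest values were in control replicate 4 and SER replicate 15, the embryos with the lowest zygotic index. Its log2 fold change of 0.01 (SE 0.37) went from −0.32 without SER replicate 15 to 0.23 without control replicate 4, so it had no settled direction.

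At an adjusted p under 0.1, edgeR's quasi-likelihood test called 0 of 8571 genes (0%) and 0 of the 9 tested members, with 491 genes at an unadjusted p under 0.05. DESeq2 called 45 of 7436 genes (0.605%), limma voom with sample quality weights 848 of 8571 (9.89%), and edgeR with no filter on low counts 504 of 17803 (2.83%). Wwp2 was the one member called by each of these. With clusters of embryos estimated from the data as a factor, 0.478% of genes and no member were called. Since the contrast chose the family, nothing is read from these counts about the members.

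The rest of the pathway was followed in lists of partners. Of the 8 tested Nedd4-family ligases, 5 had higher and 3 lower estimates in SER embryos, and their median log2 fold change was 0.10. Over all 8571 tested genes, 4515 (52.7%) had higher estimates and the median was 0.02. The counts of each list below stand beside this share and were not tested against it. Of the 16 other tested HECT ligases, 11 were higher and 5 lower (median 0.13). Trip12, which marks proteins for turnover in DNA repair, was the most abundant of them, with means of 994 ± 160 CPM (control) and 1160 ± 324 CPM (SER), with a log2 fold change of 0.18 (SE 0.15). Huwe1, a large ligase with many known targets, had 162 ± 72.3 and 252 ± 153 CPM (0.60, SE 0.27), and Herc2 had 206 ± 71.0 and 281 ± 85.2 CPM (0.42, SE 0.19). edgeR called none of the 16 in either direction, and 0 of all 8571 tested genes.

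Among 8 tested adaptors, 4 had higher and 4 lower estimates (median −0.03). Ndfip2, the relative of Ndfip1 with the same role, was nearly level at 82.6 ± 30.9 and 79.0 ± 26.7 CPM (log2 fold change −0.11, SE 0.22). Rnf11, an adaptor with its own RING domain, had −0.29 (SE 0.50), and Smad7, which brings the Smurf ligases to TGF-beta receptors, −0.28 (SE 0.50). The arrestin-like adaptors Arrdc1 and Arrdc2 had 0.13 (SE 0.22) and 0.41 (SE 0.29). Ndfip1 was the furthest from 0 of this list.

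Of the 11 tested E1, E2 and ubiquitin genes, 3 had higher and 8 lower estimates (median −0.19). Ube2d3, an E2 that works with many ligases, had means of 1963 ± 768 CPM (control) and 1517 ± 1014 CPM (SER) (log2 fold change −0.42, SE 0.28). The E1 enzyme Uba1 had −0.25 (SE 0.22), Ube2d2a −0.22 (SE 0.22) and the ubiquitin gene Ubb −0.15 (SE 0.20), while Ube2l3, an E2 used by HECT ligases, had 0.56 (SE 0.39).

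Of the 18 tested genes of known targets, 8 were higher and 10 lower (median −0.03). Pou5f1, a target of Wwp2, had means of 574 ± 388 CPM (control) and 478 ± 300 CPM (SER) (log2 fold change −0.27, SE 0.34). The endosomal sorting gene Hgs had 0.26 (SE 0.31), Smad3 −0.23 (SE 0.29) and the Wnt transducer Dvl3 −0.29 (SE 0.25). The widest estimates belonged to the Hippo kinase gene Lats1, with 0.97 (SE 0.47), and to the cell-cycle inhibitor gene Cdkn1b, with −0.94 (SE 0.39). edgeR called 0 of all 8571 tested genes in either direction. Nothing about the partner and target lists is therefore read from the 0 calls in each of them. These values are RNA levels and carry no measure of the proteins that the ligases act on.

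**Figure D3:**
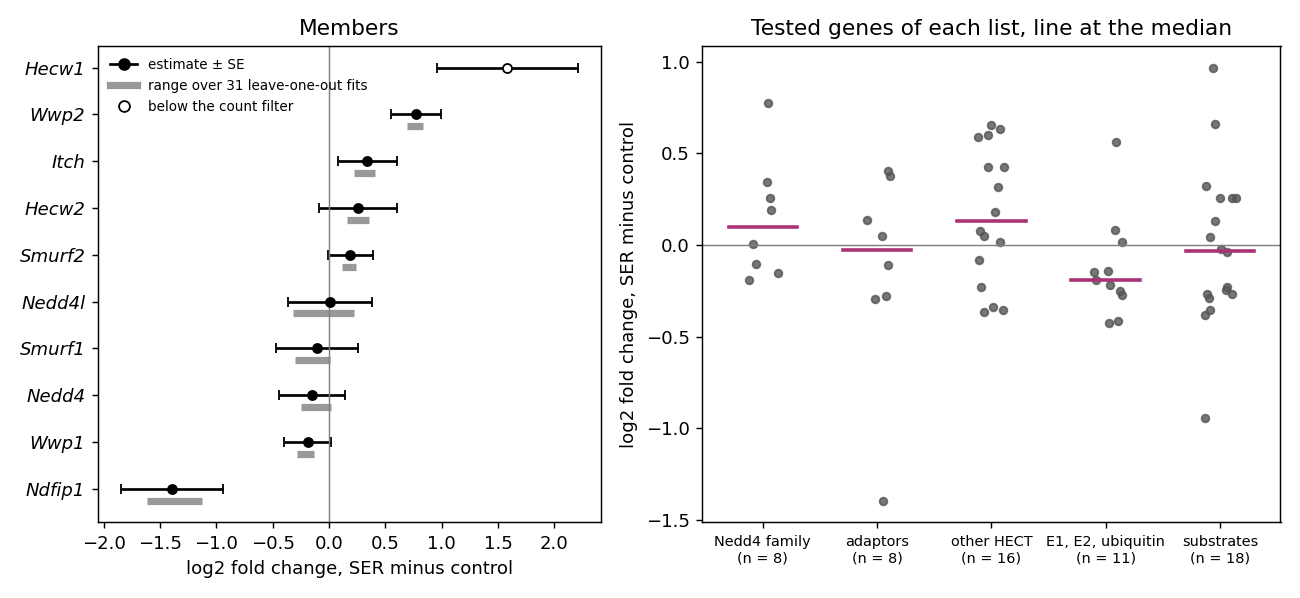
Left, log2 fold change of each member, SER minus control, with its SE, and a grey bar for its range over the 31 fits with an embryo left out (the open point is Hecw1, below the count filter). Right, log2 fold changes of the tested genes of each list, with a line at the median, which lies between −0.19 and 0.13. Wwp2 and Ndfip1 are the furthest from 0 of the tested members.

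Embryos of one group varied among themselves, and the members differed in how much. The biological coefficient of variation from the fit was 0.425 for Wwp2, lower than in all but 5.24% of 1831 genes within 0.5 of its log2 CPM. Itch (0.477, percentile 1.41) and Hecw2 (0.589, percentile 1.76) were even steadier for their level, and Wwp1 had 0.408 (percentile 7.81). A small spread within groups helps a gene to stand out in the contrast that chose Wwp2, so nothing is read from the percentile of Wwp2. Nedd4l was at the other end, with 0.703 and percentile 82.7, and Ndfip1 was close to the middle, with 0.809 and percentile 49.6. Of the 45 pairs of members, compared over the embryos with group means removed, 2 had an unadjusted permutation p under 0.05. None passed adjustment (permutation test, smallest adjusted p = 0.197), with r from −0.34 to 0.50. This does not show that the members vary independently. The strongest pair was Nedd4 with Ndfip1 (r = 0.50), both of which are highest in control replicate 5.

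To ask whether the members followed the progress of the embryo, each was compared with the zygotic and the maternal index over 31 embryos, 20 relations in all. Nedd4l went up with the maternal index (Pearson r = 0.50, permutation p = 0.00444, adjusted p = 0.0447; Spearman rho = 0.43, permutation p = 0.0174, adjusted p = 0.245). It went down with the zygotic index (r = −0.48, permutation p = 0.00894, adjusted p = 0.0447; rho = −0.35, permutation p = 0.0525, adjusted p = 0.263). Without the 2 embryos farthest from the median index, control replicate 4 and SER replicate 15 for both indices, r was 0.26 and −0.14. Among control embryos alone, r with the maternal index was 0.49, and 0.54 without their 2 farthest. Among SER embryos alone it was 0.63, and 0.18 without their 2 farthest. Neither group passed adjustment for this relation (permutation adjusted p = 0.481 in control and 0.108 in SER embryos).

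Smurf2 went up with the zygotic index (r = 0.48, permutation p = 0.00467, adjusted p = 0.0447; rho = 0.38, permutation p = 0.0367, adjusted p = 0.245), and r was 0.37 without the 2 farthest embryos. Wwp2 went down with the maternal index (r = −0.47, permutation p = 0.00766, adjusted p = 0.0447; rho = −0.32, permutation p = 0.0805, adjusted p = 0.322), and r was −0.51 without the 2 farthest. For Wwp2 the relation differed in size between the groups, with r = −0.79 among the 16 control embryos (permutation adjusted p = 0.005) and 0.05 among the 15 SER embryos (permutation adjusted p = 0.9); the difference between them was not tested. The pooled r of Wwp2 takes in the group difference that chose it. The maternal index averaged 6.98 ± 0.44 (SD) in control and 6.73 ± 0.58 in SER embryos. Nothing is therefore read from the p-value of that pooled r. With the group means removed, r of Wwp2 with the maternal index was −0.42 (permutation adjusted p = 0.0909). No relation passed adjustment by Spearman's rho, and without control replicates 4 and 5 and SER replicate 15 none passed by Pearson's r.

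**Figure D4:**
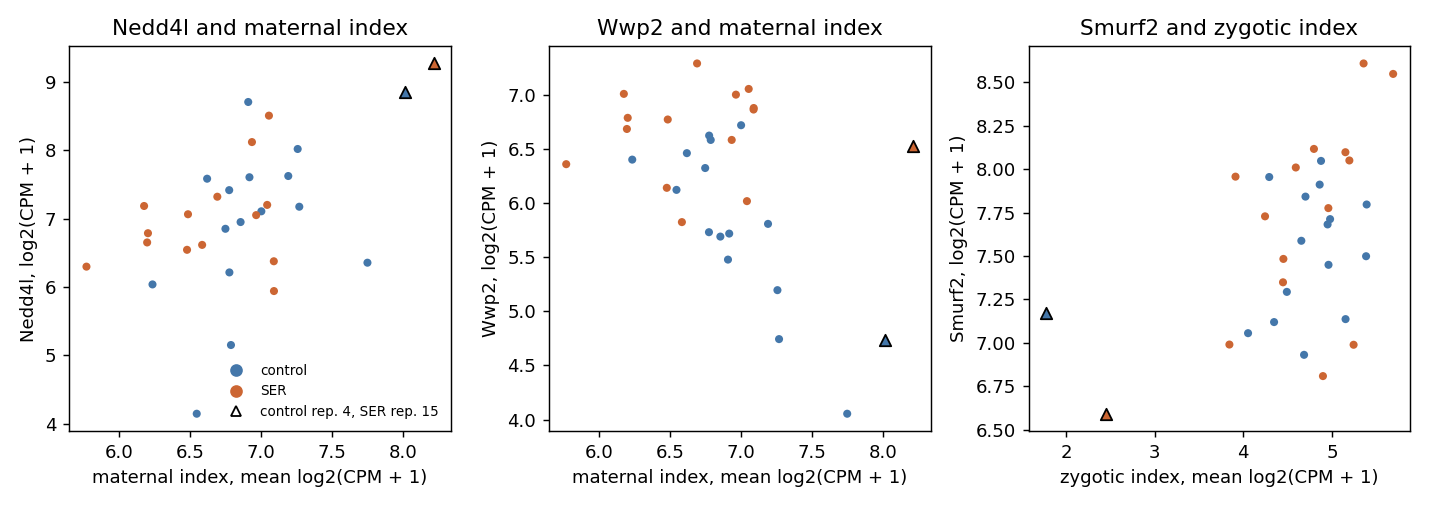
Nedd4l and Wwp2 against the maternal index and Smurf2 against the zygotic index, all as log2(CPM + 1) in 31 embryos (blue control, orange SER). The triangles, control replicate 4 and SER replicate 15, sit at the ends of the index, and Wwp2 falls along the maternal index among control embryos (r = −0.79) but not among SER embryos (r = 0.05).

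The genes whose levels over the 31 embryos ranked most like those of Wwp2, among 8570 others, were Bicdl2 (Spearman rho = 0.706), Gabpb2 (0.694), Gucy2e (0.693), Pds5a (0.683), a regulator of cohesin, and Mta2 (0.676), a subunit of the NuRD complex. All 5 had higher estimates in SER embryos, with log2 fold changes between 0.66 and 1.12, and the group means were not removed before ranking. Since Wwp2 was chosen from this contrast, nothing is read from the shared direction. The ranking is a description of the same libraries with no test.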

How the data were processed

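Smart-seq3 libraries of 31 single two-cell embryos were analyzed from the counts the authors deposited, whole numbers per gene with no normalization. The authors aligned 5′ reads with a molecular identifier and internal reads with STAR, collapsed duplicates (UMI-tools and Picard, respectively), and merged and counted both with featureCounts. The labels name mm10. Annotation, strand setting and versions are not given in the sources used here. The labels do not assign the authors' batches to embryos, so batch was not fitted and cannot be told apart from other spread.

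From these counts, edgeR 4.0.16 (R 4.3.3, quasi-likelihood test, TMM, filterByExpr with minimum count 10 and total 15, Benjamini-Hochberg) was fitted to all genes with no covariate. The SE is the size of the log2 fold change over the square root of F. CPM uses the library total, and levels between genes are per kb of exon in GENCODE vM21 (GRCm38), where 20013 of 20544 symbols were found. Permutation tests (numpy 2.4.6) were 2-sided with 100000 resamples. Alternatives included DESeq2 1.42.0 and limma 3.58.1. Scripts were tested on simulated data. Genes named are the members, up to 4 most abundant and the 2 furthest from 0 of each list, and the 5 nearest to Wwp2, except some genes that are not reported here. The members and lists were chosen with earlier results of these data known. Limits set by a count of 0 cover counting error only.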

Additional observations from a re-analysis of the deposited data

How the results depend on the processing

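The members called (0) and all genes called (0) by edgeR became 1 and 504 with no filter, 1 and 45 with DESeq2 and 1 and 848 with limma voom, and Wwp2 was the member each time. With 3 estimated clusters as a factor they were 0 and 41. Both counts were 0 in each of the 31 fits that left out one embryo, and 0 with size factors of DESeq2, singleton pairing, a filter of 10 counts in 15 embryos, robust dispersion, library size as covariate, thinned counts and a threshold of 0.05. The replicate block called 0 genes and 0 members. Whether same-numbered embryos belong together was not tested. Of 15 such pairs, 8 had a correlation over 0.1 (median 0.11, range −0.37 to 0.49), and 2 SER embryos correlated best with their own number. Of the 9 steps between neighboring levels, 5 passed, and 3 with SER embryos alone. The cause was not tested. Of the 2 members that passed with the zygotic index, 1 remained in number with TMM-scaled CPM, 0 with thinned counts, 0 in control, 0 in SER embryos, 1 with group means removed and 0 without control replicates 4 and 5 and SER replicate 15. With the maternal index the 2 became 1 with thinned counts, 1 in control, 0 in SER embryos, 1 with group means removed and 0 without these 3 embryos. In control or SER embryos alone there are fewer samples. Leaving out those embryos, removing group means and comparing members with each other were chosen after seeing the data. Among alternatives that could move the estimate, the log2 fold change kept its sign in all 12 for Wwp2 (0.57 to 0.86) and all 11 for Ndfip1 (−1.43 to −1.13), which was not tested after thinning. It also kept its sign in all 12 for Itch, Smurf2 and Wwp1, in 11 for Hecw2 (−0.14 to 0.28), in 9 for Nedd4 (−0.16 to 0.10) and Smurf1 (−0.58 to 0.07), and in 6 for Nedd4l (−0.17 to 0.07).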
